A study of Homo sapiens with 3 samples.

Results

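The genes described here are SET, ANP32A, ANP32B, ANP32E, NAP1L1 and PTMA, which encode acidic histone chaperones or close relatives of them. They were taken as a list of 6 genes among the 3797 genes that had at least 1 ribosome peak in the files. A peak, a stretch where ribosome-protected fragments piled up past the authors' cut-off, was counted for the gene of the RefSeq transcript in its annotation, and otherwise for the gene named in its row. By this rule the 6 genes had 126 of 46819 peaks, of which 35 of 11219 were in the empty vector list, 59 of 19920 in the wild-type DDX3X list and 32 of 15680 in the DDX3X G325E list.

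The cells were HEK293T, derived from human embryonic kidney, and carried for 24 h an empty vector or a plasmid for FLAG-tagged DDX3X, either wild-type or with the substitution G325E. DDX3X, a helicase of the DEAD-box group, acts on mRNAs during translation, and G325E has been found in medulloblastoma. Per the labels, harringtonine, which arrests ribosomes at start codons, came first (2 µg/ml, 90 s), followed by 100 µg/ml of cycloheximide, which arrests elongating ribosomes, whereas the study's methods name cycloheximide only. There was 1 library per construct (no replicates), so no difference below could be set against a spread between cultures and no test between constructs was possible.

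All 3 groups shared the line, the transfection time and the drugs, and transient transfection leaves untransfected cells in each dish. Although the labels also give the cell type as neuronal, 6 of 8 neuronal genes chosen for this check (among them RBFOX3, MAP2 and SNAP25) had no listed peak, and only TUBB3 and NEFL had any. DDX3X itself had 0 listed peaks in vector, 32 in the wild-type list and 9 in G325E. The files gave positions without height or read count, so the depth under each peak is unknown, and a listed 0 says only that no peak passed. The paper's supplement gives the reads of each library. After removal of duplicates, mapped reads were fewest in G325E and most in wild-type. How far this entered the peak counts was not tested. The authors numbered their peaks along the genome. Numbers were skipped 1952 times in the vector list (14.8%) and 3099 times in the wild-type list (13.5%) but 0 times in the G325E list. Unbroken numbering does not show whether peaks were taken out of that list before it was numbered. Because peaks are numbered in order of position, a skipped number can be placed between its listed neighbours, and 15 fell between peaks of the 6 genes in vector, 22 in the wild-type list and 0 in G325E. Counts for vector and wild-type are therefore given with these skipped numbers beside them.

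Histone chaperones bind histones through acidic surfaces or acidic tails, keep them soluble and hand them on during nucleosome assembly and removal. SET, also called TAF-I or I2PP2A, binds histones, masks them from acetyltransferases and inhibits the phosphatase PP2A. The ANP32 proteins join a leucine-rich repeat domain to an acidic tail. ANP32A, also a PP2A inhibitor, is found in complexes with SET, and ANP32E removes the variant histone H2A.Z from chromatin. NAP1L1 carries H2A and H2B, and PTMA encodes prothymosin alpha, a small disordered acidic protein that binds linker histone H1.

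The start codons of these genes are shown first, since harringtonine, if it was used as the labels state, holds initiating ribosomes there. Each line gives 29 bases of GRCh37 (hg19), 5′ to 3′ on the strand of the gene, with the start codon in capitals. SET has a pair of start codons in alternative first coding exons, the alpha form (SET-213, 290 codons) and the beta form (SET-201, 277 codons).
SET alpha, chr9:131446163-131446191, plus strand: ttccctaacagcATGgcccctaaacgcca
SET beta, chr9:131451850-131451878, plus strand: cggagcagcaccATGtcggcgccggcggc
ANP32A, chr15:69113074-69113102, minus strand: agagcgcgagagATGgagatgggcagacg
ANP32B, chr9:100745826-100745854, plus strand: gaagaggggaacATGgacatgaagaggag
ANP32E, chr1:150208118-150208146, minus strand: caagaggaggacATGgagatgaagaagaa
NAP1L1, chr12:76467983-76468011, minus strand: agttcttacaacATGgcagacattgacaa
PTMA, chr2:232573405-232573433, plus strand: gcgtgccccaccATGtcagacgcagccgt

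Of these 7 start codons, 3 lay under a listed peak in vector, 4 in the wild-type list and 3 in G325E. The ANP32B start codon was the one under a peak in all 3 lists. The SET alpha start codon was covered in vector and wild-type but not in G325E, and the SET beta start codon in G325E but not in the other lists. A peak covered the PTMA start codon in vector and G325E, and the ANP32A and NAP1L1 start codons had one in wild-type alone. The ANP32E start codon had none. The windows above differed widely in base composition, from 37.9% GC at NAP1L1 to 79.3% at SET beta. The 3 windows under a G325E peak had 51.7% (ANP32B), 69.0% (PTMA) and 79.3% GC (SET beta), and the 4 without one had 37.9% to 62.1%. Skipped numbers touch several of these gaps. There were 7 between the peaks that flank the SET beta start codon in vector and 4 in wild-type, 4 around the PTMA start codon in wild-type, 2 around that of ANP32E in wild-type and 1 around that of ANP32A in vector. No number was skipped around the NAP1L1 start codon in vector, nor at any start codon in G325E.

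Acidic stretches are what these proteins share beyond their role, and the second set of sequences shows, for 5 of the genes, a run of 10 codons rich in aspartate or glutamate. Runs were eligible if every codon lay at least in part under 1 site, merged over the lists, and within 1 exon. The one with the most acidic codons is printed for each gene. Ties went to the run listed in more lists, and then by position. Acidic codons are in capitals, and each run is 30 bases of GRCh37, 5′ to 3′ on the strand of the gene.
SET, codons 96 to 105, chr9:131454952-131454981: cttgggGAGGAAGATGAAGAGgcactgcat
ANP32A, codons 218 to 227, chr15:69072756-69072785: GAGgtaGATGACGAGGAAGATGAAGAAGAG
ANP32B, codons 146 to 155, chr9:100767354-100767383: GATggctatGACcgaGAGGACcagGAAgca
ANP32E, codons 258 to 267, chr1:150192999-150193028: GATgctGAAGACGATggaGAGGAAGAAGAT
NAP1L1, codons 18 to 27, chr12:76462711-76462740: GATgttGAAGAAgtaGAAGAAGAGGAAact

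The printed runs held 9 acidic codons of 10 in ANP32A, 8 in ANP32E, 7 in NAP1L1, and 5 each in SET and ANP32B. They are not an order of the genes by acidity, since denser sites fell outside the choice. ANP32B codons 164 to 173, with 8 acidic of 10, end across an exon junction, and the SET sites over codons 225 to 233 (6 of 9), 263 to 270 (6 of 8) and 271 to 277 (6 of 7) are shorter than 10 codons. The peaks over the printed SET, ANP32A, ANP32B and NAP1L1 runs were listed in vector and wild-type and not in G325E, and the ANP32E peak in wild-type alone. The SET peak in wild-type began at codon 98 and the NAP1L1 peak in vector at codon 21, so each covered only part of its run. Acidic codons were nevertheless listed in G325E, where SET codons 225 to 233 and 263 to 270 had peaks that the other lists lacked. Vector skipped 4 numbers over that stretch and wild-type 3. Of the PTMA codons under peaks counted by the rule above, 30 of 68 were acidic in G325E. The counts were 10 of 39 in vector and 7 of 24 in wild-type.

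The number of peaks was compared first, to see which of the genes were seen in each condition. SET had 10 peaks in vector, 18 in the wild-type list and 14 in G325E. ANP32A had 5, 12 and 0 in the same order, and NAP1L1 had 6, 13 and 1. ANP32B (6, 8 and 8) and PTMA (8, 7 and 9) had similar raw counts in the lists, which differ in size, whereas ANP32E had a single peak, in wild-type. The genes thus fell into those that were listed throughout (SET, ANP32B and PTMA) and those listed in vector and wild-type with 1 peak or none in G325E (ANP32A and NAP1L1). Between the peaks of SET, 11 numbers were skipped in vector and 9 in wild-type. The same counts were 3 and 8 for ANP32B, 1 and 4 for PTMA, 0 and 1 for ANP32A and 0 and 0 for NAP1L1. With these added, SET would have 21 and 27 and ANP32B 9 and 16.

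**Figure D1:**
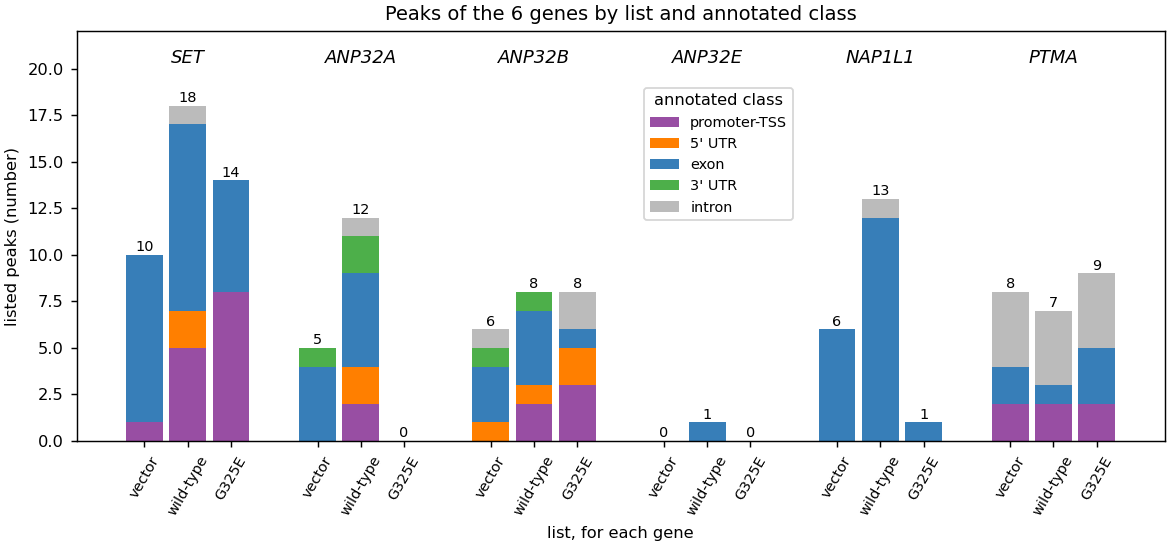
Number of listed peaks (vertical axis) for each of the 6 genes in the vector, wild-type and G325E lists, with bars divided by the annotated class of the peak and the total above each bar. ANP32A goes from 12 peaks in wild-type to 0 in G325E and NAP1L1 from 13 to 1, while promoter-TSS peaks make up 8 of the 14 SET peaks in G325E.

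Lists of unequal size were then put on the same footing by scaling each gene's peaks to the list total, and a ratio of at least 2-fold was called where a gene had at least 5 peaks in both lists together. ANP32E had too few. NAP1L1 had a scaled ratio of 0.0977 in G325E against wild-type (95% interval 0.0164 to 0.583, counting error only), a ratio that rests on 1 G325E peak. With 0 peaks in G325E, taken as at most 3, ANP32A was at least 3.15-fold lower than in wild-type. The ratios of SET (0.988, 0.498 to 1.960), ANP32B (1.27, 0.494 to 3.27) and PTMA (1.63, 0.631 to 4.23) stayed within 2-fold and their intervals included 1. Skipped numbers are not counted in the ratios by gene here and below. So 2 of the 5 genes that could be called were lower in G325E and 0 were higher, against 27.9% lower and 26.1% higher among 2562 genes. A listed 0 in G325E was common, since 20.96% of those genes had one. The interval of 2 in 5 (11.8% to 76.9%) included the background, so the count says nothing particular about the 6 genes.

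Against vector, the pattern by gene was the same, with the G325E values shared between both comparisons. NAP1L1 had a ratio of 0.119 (0.0189 to 0.754), ANP32A was at least 2.33-fold lower, and SET (1.00), ANP32B (0.954) and PTMA (0.805) stayed within 2-fold. That made 2 of 5 lower and 0 higher, against 23.2% lower and 34.2% higher among 2095 genes. The ANP32A call rests on 5 vector peaks, the fewest allowed. Among them a peak of 1 base lay next to a peak of 12 bases, where wild-type listed 1 peak of 14 bases. If that pair were merged, ANP32A could not be called against vector. Because no number was skipped in G325E and skipped numbers could only add peaks to the other lists, the low G325E counts of ANP32A and NAP1L1 do not rest on skipped numbers in that list. Whether G325E peaks were taken out before numbering is unknown.

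Wild-type against vector gave a scaled ratio of 1.01 for SET (0.476 to 2.16), 1.35 for ANP32A (0.497 to 3.68), 1.22 for NAP1L1 (0.480 to 3.10) and 0.751 for ANP32B (0.272 to 2.07). PTMA, at 0.493 (0.186 to 1.31), was the 1 gene of 5 past 2-fold, against 18.0% lower and 27.3% higher among 2218 genes. It stood just past the threshold, its interval included 1, and 4 numbers were skipped between its wild-type peaks and 1 between its vector peaks. With scaling by the median gene its ratio was 0.700, within 2-fold. Over the 5 genes the median ratio was 0.988 for G325E against wild-type (1.09 over all genes called), 0.805 for G325E against vector (0.984) and 1.01 for wild-type against vector (0.845). Pooled over the 6 genes, the ratios were 0.689 (0.450 to 1.06), 0.654 (0.407 to 1.05) and 0.949 (0.627 to 1.44), with every interval reaching past 1.

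**Figure D2:**
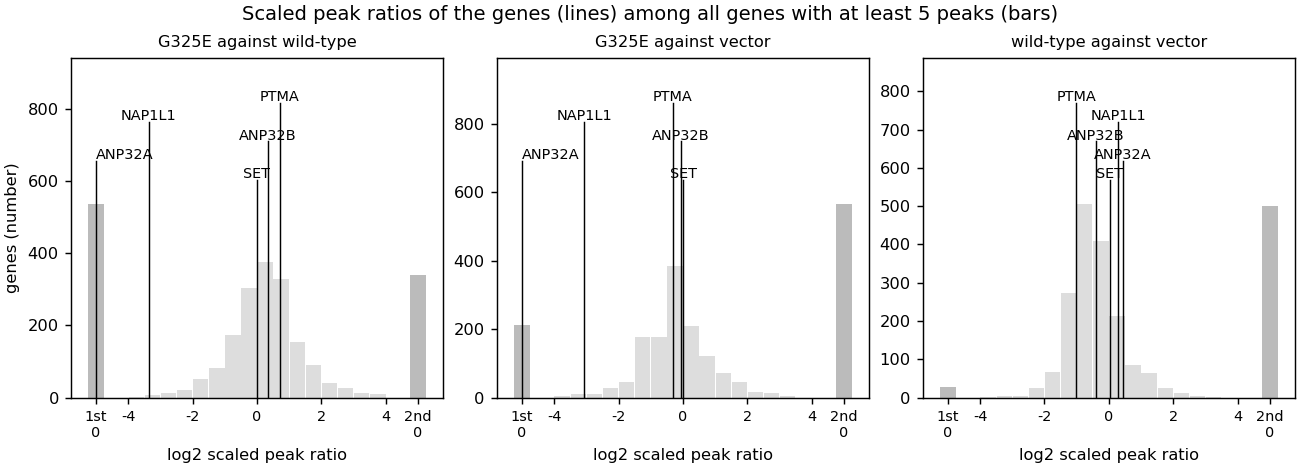
Distribution of the log2 scaled peak ratio over all genes with at least 5 peaks in both lists together (bars, number of genes), with the members that could be called as vertical lines, for the 3 pairs of lists, and genes listed at 0 in the first or second list in the outer bars. NAP1L1 stands near the lower end of the bars in both G325E panels and ANP32A in the bar of genes at 0, while SET, ANP32B and PTMA lie near the middle.

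SET (chromosome 9, 131451501 to 131458675 for the beta form, plus strand, 8 exons) had peaks over its coding sequence in every list and differed in which first exon carried them. The alpha and beta start codons lie 5687 bases apart, and the exons after the first are shared. Around the alpha start codon, vector had a peak at 131445923 to 131445957 upstream and one at 131446164 to 131446286 over the start codon, reaching the end of that exon. Wild-type had 5 peaks there, among them the same stretch of 131446164 to 131446286 with identical ends. G325E had 0 peaks in this region and skipped no number there.

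Around the beta start codon the lists went the other way. G325E had 8 peaks between 131451306 and 131452150, all annotated promoter-TSS, the class HOMER gives to peaks close to a transcription start. The longest, listed at 131451507 to 131451779, covered 274 bases of the beta 5′-UTR, and the next, at 131451837 to 131451934, covered the start codon and ran to the end of the exon. One of the 8, at 131451999 to 131452068, lay on the opposite strand, where the 31 bases around its midpoint were 100% GC. Wild-type listed 2 short peaks in the same stretch, at 131451443 to 131451471 and 131451983 to 131451995, with 4 numbers skipped between them and 2 after. Vector listed 0, with 7 numbers skipped between the alpha exon and the second coding exon. Whether those skipped numbers were beta peaks was not tested, since their rows are not in the files analysed here, so the beta contrast cannot be told apart from the difference in skipping. For the alpha exon G325E skipped no numbers, although peaks taken out before numbering would leave no gap.

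Peaks covered 29.96% of the beta coding sequence in vector, 29.4% in the wild-type list and 32.1% in G325E, a G325E value that includes the peak over the start codon. After the first coding exon, 249 of 758 coding bases lay under peaks in vector, 244 in the wild-type list and 194 in G325E. Sites at codons 25 to 44, 153 to 164 and 166 to 189 were listed in all 3, and those over codons 96 to 105 (the acidic run printed above), 118 to 125 and 271 to 277 with the stop codon in vector and wild-type only. The sites over codons 225 to 233 and 263 to 270 in exon 7 were listed in G325E alone. Between the peaks that flank them vector skipped 4 numbers and wild-type 3, so this difference cannot be told apart from skipping. Acidic codons made up 28.7%, 29.9% and 29.7% of the codons under peaks in vector, wild-type and G325E, close to the 31.8% of the whole SET sequence. The mean GC content of the 31 bases around SET peaks was 41.9% ± 12.4 (SD over 10 peaks) in vector, 52.2% ± 18.8 (18 peaks) in wild-type and 66.4% ± 24.7 (14 peaks) in G325E, with the promoter-TSS peaks at the GC-rich end.

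ANP32A (chromosome 15, 69070874 to 69113234, minus strand, 7 exons) had peaks in vector and wild-type only. All 5 vector peaks lay in the last exons, 4 over codons 211 to 239 of the acidic tail and 1 in the 3′-UTR at 69072240 to 69072263. Wild-type had matching peaks for those places, including the 3′-UTR peak with the same ends, and added peaks at codons 13 and 178, over the start codon at 69113073 to 69113135 and upstream of it. Of its 12 peaks 3 lay on the opposite strand. G325E listed none over the whole transcript. Under the ANP32A peaks 24 of 40 codons in vector and 30 of 60 in wild-type were acidic, against 89 of 249 (35.7%) in the whole sequence.

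Peaks at a copy of ANP32A bear on these counts. ANP32AP1 (chromosome 15, 35474000 to 35530398, plus strand), an annotated pseudogene, had 10 listed peaks in wild-type and 0 in vector and G325E, with no number skipped there in either. When placed on the ANP32A mRNA by their best ungapped match, 6 of the 10 were identical to it and the others were 86.2% to 97.1% identical, at codons 13 to 245. They matched 117 of 249 ANP32A codons, against 60 codons under the wild-type peaks at ANP32A itself, with 29 codons in both. The stretch from codon 18 to 175, where ANP32A had no listed peak, held 7 of the ANP32AP1 peaks. The peaks at codon 13 had the same 25 bases at both places, with the ends listed for each, so a read within this stretch matches both. The paper describes its ribosome profiling reads as uniquely mapped, and how reads that match both places were handled is unknown.
ANP32A, chr15:69113041-69113065, minus strand: tagagctgcggaacaggacgccctc
ANP32AP1, chr15:35529552-35529576, plus strand: tagagctgcggaacaggacgccctc

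**Figure D3:**
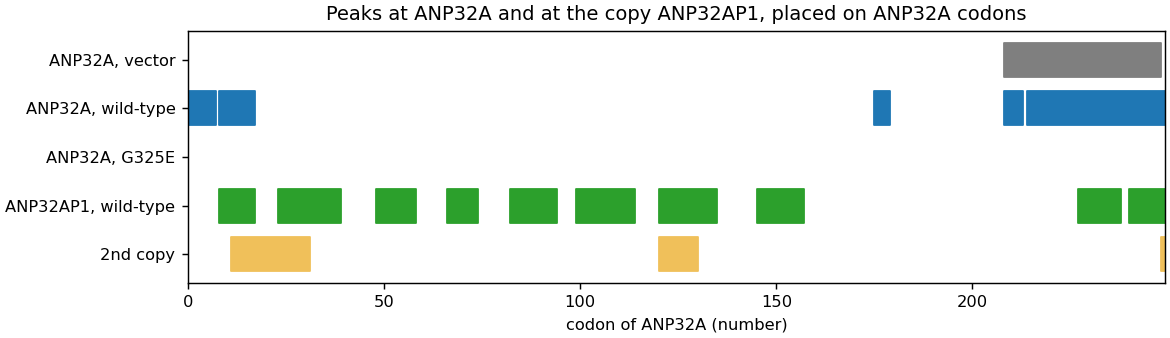
Codons of ANP32A (horizontal axis) under listed peaks at ANP32A in vector, wild-type and G325E, the codons matched by the 10 wild-type peaks at ANP32AP1, and the codons whose sequence has an exact copy elsewhere in the genome. ANP32AP1 peaks spread over the first and middle codons, and vector peaks at ANP32A lie at codon 209 and beyond.

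ANP32B (chromosome 9, 100745623 to 100778225, plus strand, 7 exons) had first-exon peaks that were nearly alike in the 3 lists. A long 5′-UTR peak began at 100745674 in every list, with lengths of 122, 128 and 120 bases in vector, wild-type and G325E. The peak over the start codon ended at 100745891 in every list, the end of exon 1, and began at 100745816 in vector and at 100745815 in the other lists. Further along the lists differed. Vector had 2 coding peaks in exon 4 (codons 154 and 168) and wild-type had 3, and both had a 3′-UTR peak, beginning at 100777819 in vector and 100777813 in wild-type, whereas G325E had 0 peaks past the first intron. It had instead 4 peaks at 100745483 to 100745613, upstream of the canonical transcript, of which 3 were promoter-TSS. Wild-type skipped 3 numbers between its peaks on either side of that stretch, and vector skipped 3 before its first ANP32B peak, so the difference at this end cannot be told apart from skipping. The share of the coding sequence under peaks was 17.1% in vector, 20.98% in the wild-type list and 7.17% in G325E, and the difference came from exon 4, where no G325E number was skipped.

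ANP32E (chromosome 1, 150190717 to 150208460, minus strand, 8 exons) had 1 peak in all, in wild-type, at 150192995 to 150193063. It spanned 70 bases over the last 23 codons and the stop codon, and 52.2% of those codons were acidic against 38.1% in the whole sequence. Of its 776 coding stretches of 29 bases, 18 had an exact copy elsewhere, the fewest of the 6 genes.

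NAP1L1 (chromosome 12, 76430365 to 76478465, minus strand, 15 exons) was listed over its whole length in wild-type and at its end in G325E. Its 6 vector peaks lay at codons 11, 28, 155, 359, 372 and 388. All 6 sites were also listed in wild-type, which had 7 more sites, among them the start codon at 76467984 to 76468007 and exons 9 and 10. The 1 G325E peak, at 76442201 to 76442244, covered the stop codon, and the same site was listed in vector and wild-type at 76442199 to 76442244. Peaks covered 21.7% of the coding sequence in vector, 34.95% in the wild-type list and 2.81% in G325E. The acidic run printed above, codons 18 to 27, lay under a wild-type peak over its whole length and under a vector peak from codon 21 on. The exon 3 peaks reached the exon's edge in both lists. The mean GC content around NAP1L1 peaks was 40.3% ± 8.83 (SD over 6 peaks) in vector and 39.2% ± 7.99 (13 peaks) in wild-type, beside 62.7% and 62.2% over all peaks of those lists.

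PTMA (chromosome 2, 232573235 to 232578261, plus strand, 5 exons) has the shortest and most acidic coding sequence, 110 codons with 48.2% acidic. Exon 2, codons 16 to 39, lay under a peak in all 3 lists, from 232576059 to 232576129 in vector and wild-type and to 232576125 in G325E. Over the start codon, vector had a peak at 232573382 to 232573461 and G325E one at 232573386 to 232573461. By annotated class, PTMA had 4 intronic peaks in each list, more than any other of the genes. In wild-type 1 of them spanned 1 base on the opposite strand, and in vector peaks of 2 and 19 bases belonged to 1 merged site. Placed on the canonical transcripts, SET and ANP32B also had 2 intronic peaks each in G325E. The PTMA peaks near 232573571 in the first intron were listed in vector and G325E. By the assignment rule, peaks covered 35.5% of the PTMA coding sequence in vector, 21.8% in the wild-type list and 61.5% in G325E. Counted by position, which adds the peaks described next, 79 of 110 codons were touched in vector, 64 in the wild-type list and 99 in G325E.

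Some peaks within PTMA were counted for another gene. The last exons of PTMA held 5 vector, 4 wild-type and 3 G325E peaks, which the annotation places in the promoter-TSS class of a MIR1244 microRNA. Of these, 2 in each list were in the coding sequence, 1 of them over the stop codon. Counted by position, PTMA had 13, 11 and 12 peaks, and its ratio in wild-type against vector was 0.477. Peaks were also listed at PTMA copies. PTMAP4 (chromosome 12) had 5 in vector, 2 in the wild-type list and 4 in G325E, PTMAP11 (chromosome 9) 3, 4 and 0, and PTMAP9 (chromosome 12) 1, 1 and 2. NAP1L1P1 (chromosome 11) had 3 in wild-type and 0 in the others. Of 41 annotated copies of the 6 genes, 5 had a listed peak, and 0 of the 20 SET copies did.

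**Figure D4:**
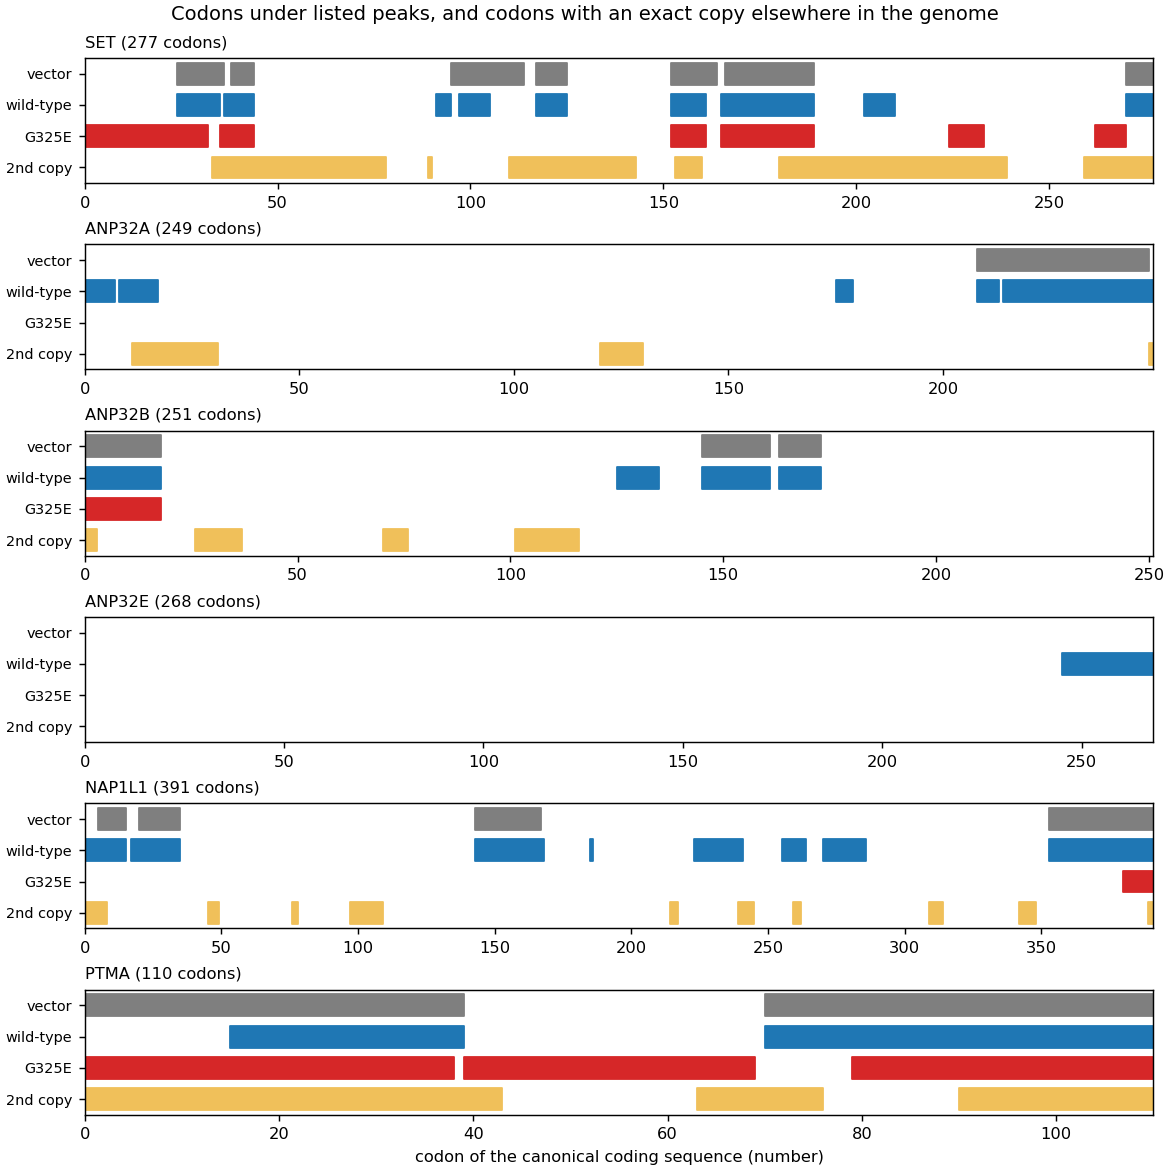
Codons of each gene (horizontal axis, codon number in the canonical coding sequence) under listed peaks inside the gene in vector, wild-type and G325E, and codons for which every 29-base stretch has an exact copy elsewhere in the genome (2nd copy). SET and PTMA are covered in every list, ANP32A is empty in G325E, and copied codons are frequent in SET and PTMA and absent in ANP32E.

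Exact copies were then counted over the 6 coding sequences, since a read within a copied stretch matches more than 1 locus. Whether such reads were kept is unknown, as the paper describes the reads as uniquely mapped. The share of 29-base coding stretches with another exact copy was 88.1% in PTMA, 80.6% in SET, 50.3% in NAP1L1, 47.8% in ANP32A, 34.8% in ANP32B and 2.32% in ANP32E. Over the 6 genes together, peaks covered 24.6% of copied coding bases in vector, 26.5% in the wild-type list and 26.1% in G325E. Of the bases that lie in at least 1 stretch without a copy, they covered 16.8%, 23.5% and 7.55%. These pooled values mix genes that differ in both copies and peaks. In G325E, peaks covered 42.9% of bases without a copy and 25.1% of copied bases in SET. The same values were 58.2% and 62.9% in PTMA, 6.73% and 9.65% in ANP32B, and 2.50% and 4.65% in NAP1L1. ANP32A and ANP32E had no G325E peaks. The 3 genes with peaks throughout include the pair with the most copies (SET and PTMA) and also ANP32B, which has few. The part of copies in the peak counts was not tested.

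The regions of the peaks were compared next, over the 6 genes pooled. Promoter-TSS peaks were 8.57% of 35 in vector (95% Wilson interval 2.96 to 22.4), 18.6% of 59 in wild-type (10.7 to 30.4) and 40.6% of 32 in G325E (25.5 to 57.7). Over all peaks these shares were 23.0%, 21.1% and 34.7%. The vector interval stopped short of the share over all peaks and the other intervals included it, and SET supplied 8 of the 13 G325E peaks of this class. The vector difference rests on how peaks were assigned: the share was 8 of 40 by position (10.5 to 34.8), 3 of 23 by the row's gene name (4.54 to 32.1) and 3 of 30 among peaks of at least 20 bases (3.46 to 25.6), and each of these intervals included 23.0%. Coding peaks, placed on the canonical transcript, were 65.7% (49.2 to 79.2) in vector, 54.2% (41.7 to 66.3) in wild-type and 37.5% (22.9 to 54.7) in G325E, against 60.2%, 59.5% and 42.5% over all peaks. Each of these intervals included the value over all peaks. On the opposite strand lay 0, 5 and 1 of the peaks.

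Coding peaks of the 6 genes had a median position of 0.570 in vector (23 peaks), 0.602 in the wild-type list (32 peaks) and 0.362 in G325E (12 peaks), where 0 is the start codon and 1 the stop codon. The 95% intervals of these medians, 0.244 to 0.853, 0.364 to 0.712 and 0.0283 to 0.825, overlapped. Over all genes the medians were 0.510, 0.524 and 0.336, which lay inside the intervals of the 6 genes. In G325E the values were set by SET, ANP32B and PTMA, with 1 NAP1L1 peak at the far end. The G325E median was 0.143 by the row's gene name, 0.526 by position and 0.574 with the 5′ end of each peak, for which the vector median was 0.590.

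Codons for aspartate and glutamate made up 39.7% of the codons under member peaks in vector (34.3 to 45.4), against 33.5% of the whole coding sequences of the genes covered there. In wild-type they were 37.4% (32.7 to 42.3) against 34.3%, and in G325E 32.4% (26.2 to 39.4) against 32.9%. Of these intervals, the vector one excluded the value of the whole sequences. By the row's gene name the vector share was 33.3% (26.7 to 40.7) against 32.9%, and that difference was lost. By position the wild-type share was 167 of 428 codons (34.5% to 43.7%), above the 34.3% of the whole sequences. Codons next to each other are not independent, so these intervals are narrower than the data allow. Among the genes, the acidic share under peaks was above that of the whole sequence in ANP32A and ANP32E wherever they had peaks. In NAP1L1 it was 47.1% in vector, 35.7% in the wild-type list and 18.2% (2 of 11 codons) in G325E, against 26.6%. In ANP32B it was 40.9%, 37.0% and 11.1% in the same order, against 37.5%. It was below that of the whole sequence in PTMA (25.6%, 29.2% and 44.1%, against 48.2%).

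The GC content around member peaks averaged 53.1% ± 17.1 (SD over 35 peaks) in vector, 54.1% ± 16.6 (59 peaks) in wild-type and 70.6% ± 19.98 (32 peaks) in G325E. Over all peaks it was 62.7% ± 13.4, 62.2% ± 13.5 and 73.1% ± 12.8, so the mean of the 6 genes was the lower one in each list, and both sets had their highest mean in G325E, with spreads over peaks that overlapped between lists. Coding GC content ran from 39.1% in NAP1L1 through 41.8% in SET, 42.5% in ANP32E, 44.1% in ANP32B and 48.1% in ANP32A to 51.8% in PTMA. The part of base composition in which genes kept G325E peaks was not tested.

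How far the lists placed member peaks at the same sites was asked last. The 126 peaks merged into 83 sites, of which 8 were listed in all 3 lists, 18 in vector and wild-type, 3 in vector and G325E, 1 in wild-type and G325E, 31 in wild-type alone, 19 in G325E alone and 3 in vector alone. Of the vector peaks 82.9% (67.3 to 91.9) overlapped a wild-type peak and 34.3% (20.8 to 50.8) a G325E peak, against 77.2% and 48.3% over all vector peaks. Of the wild-type peaks 45.8% (33.7 to 58.3) overlapped a vector peak, against 41.9% over all. Of the wild-type peaks 16.9% (9.48 to 28.5) overlapped a G325E peak, against 35.2% over all wild-type peaks, a value above the members' interval. Of these 59 wild-type peaks 12 were in ANP32A and 13 in NAP1L1, which had 0 and 1 peak in G325E. Peaks of 1 gene are not independent, so the intervals in this paragraph are narrower than the data allow. In the other direction 31.3% (18.0 to 48.6) of G325E peaks overlapped a wild-type peak, against 47.6% over all, and 37.5% (22.9 to 54.7) a vector peak, against 35.7%. The sites common to all 3 lists were 3 in SET, 2 in ANP32B, 2 in PTMA and 1 in NAP1L1.

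Peak ends followed exon ends. Of the coding peaks of the 6 genes, 65.2% in vector (44.9 to 81.2), 65.6% in the wild-type list (48.3 to 79.6) and 66.7% in G325E (39.1 to 86.2) reached an internal exon edge. Over all genes 41.4%, 42.1% and 29.5% did, each below the members' interval. Those intervals take peaks of the same gene as independent and are narrower than the data allow.

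Other histone chaperones and PP2A subunits were counted for comparison. Of 22 other chaperones, 10 had a peak in vector, 15 in the wild-type list and 8 in G325E, and 7 had none in any list. Of the 12 with enough peaks, 6 were at least 2-fold lower in G325E relative to wild-type, and 0 were higher (median ratio 0.459), beside 27.9% and 26.1% over all genes. Against vector, 4 of 8 were lower and 2 higher (median ratio 0.449), beside 23.2% and 34.2%. The ones with the most peaks were NASP, a carrier of H3 and H4 (21, 28 and 8 peaks in vector, wild-type and G325E), SSRP1, a subunit of FACT (20, 16 and 7), PTMS, the parathymosin relative of PTMA (10, 12 and 7), and RBBP7, a WD-repeat histone binder (9, 7 and 10). Of 12 subunits of PP2A and related proteins, 4 had a peak in vector, 7 in the wild-type list and 6 in G325E. Among the 6 of them with enough peaks, 2 were higher in G325E than in wild-type and 0 lower (median ratio 1.54). Over all genes 26.1% were higher and 27.9% lower. Against vector 3 of 6 were higher and 0 lower (median ratio 1.97), beside 34.2% and 23.2% over all genes. Counts this small say nothing particular about these subunits.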

How the data were processed

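Ribosome-protected fragments of HEK293T cells were profiled in 3 libraries, 1 per construct, and grouped by their titles. Per the study's methods and the submitters' processing notes, adapters were trimmed with cutadapt, reads were aligned with BWA 0.5.5 to the human genome (hg19), RefSeq, exon junctions and AceView, duplicates were removed, and peaks past a coverage cut-off were called in each library, merged, reviewed by eye and annotated with HOMER. The deposited values are peak positions and distances to the nearest transcription start, with no score or p-value, and they carry no read depth.

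Peaks went to genes by the RefSeq transcript of their annotation. The listed start was 1 base past an internal exon start 5572 times and on it 40 times, while ends met exon ends 5709 times, so 1 base was added at the start of each peak. Printed peak coordinates are as listed, and printed sequences and gene positions are from GRCh37 and GENCODE 44 lifted to it. Coding positions and regions used the peak's midpoint on the canonical transcript. GC content used 31 bases around the midpoint, and lists were said to share a peak at an overlap of at least 1 bp. Intervals are 95% Wilson intervals, or order-statistic intervals for medians, cover counting error only and treat peaks of the same gene as independent. Ratios were scaled to list totals and called at 2-fold with at least 5 peaks. The ratio was tested on simulated peak counts. Exact copies of 29-base coding stretches were sought on both strands of GRCh37. No protein sequence was used here. The acidic stretch of the remaining gene is not reported here.

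All 6 genes are described, other chaperones were named by most peaks, and pseudogenes were counted where annotated. The genes and lists were chosen with earlier results of these data known. Alternatives were peaks of at least 20 bp, peaks on the strand of the gene, the row's gene name alone, the 5′ end in place of the midpoint, other scaling, promoter-TSS peaks left out, equal weight per gene, an overlap of 50% of both peaks and the bases of the peak itself. Assignment by position and the counting of skipped numbers were added after seeing the data. Software was Python 3.11.15, numpy 2.4.6, pandas 2.3.3, scipy 1.17.1 and matplotlib 3.10.9.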

Additional observations from a re-analysis of the deposited data

Results flagged for a closer look

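The wild-type list held 10 peaks at the pseudogene ANP32AP1, outside the peaks counted for the 6 genes. Vector held 0, and 3 peaks, the most a listed 0 was taken to allow, would be 5.33 peaks in a list as long as the wild-type one. G325E held 0 as well. Peaks at the other copies did not pass this bound: NAP1L1P1 had 3 in wild-type, PTMAP11 had 4 in wild-type and 0 in G325E, PTMAP4 had 2 and 4, and PTMAP9 had 1 and 2. With 1 library per construct the difference has no replicate check.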

How the results depend on the processing

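Of 111 values recomputed under alternatives for 21 results, 107 stayed within the interval (GC content: 1 SD over peaks) of the value reported and 4 moved out of it. All 4 were percents of acidic codons under peaks. Taking the row's gene name alone gave 33.3% in vector and 25.8% in G325E. Taking the codon at the 5′ end of each peak gave 44.8% in wild-type and 50% in G325E, from 29 and 8 codons. Scaling to the median gene shifted every gene by −0.35 on the log2 scale in G325E against wild-type, 0.31 in G325E against vector and 0.51 in wild-type against vector. NAP1L1 stayed past 2-fold lower in G325E under it (0.0769 and 0.148), and PTMA did not in wild-type against vector. With the same scaling the pooled ratio of wild-type against vector went from 0.949 to 1.349, across 1 but inside its interval. Counting skipped numbers as peaks gave pooled ratios of 0.580, 0.538 and 0.927. No paired analysis was possible because there was 1 library per construct, and no library could be left out for the same reason. Intervals this wide limit what the 32 to 59 peaks of a list can show.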
